A study of Mus musculus with 10 samples.

Results

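The comparison described here sets ovaries that lack retinoic acid receptors and carry 1 floxed allele of Dmrt1 against ovaries that lack the receptors alone. Its members were taken from the sample titles: 2 libraries of Dmrt1 het Rar mutants and 3 of Rar mutants, 5 of the 10 libraries in the series, with all 24306 genes of the count table, of which 20570 had enough counts to be tested. Both genotypes carried homozygous floxed alleles of Rara, Rarb and Rarg together with Sf1-Cre, and the Dmrt1 het Rar mutants were Dmrt1 fl/+ where the Rar mutants were Dmrt1 +/+. The 5 controls had the same floxed receptor alleles, both Dmrt1 alleles intact and no Cre, and they enter here as a reference level and as part of the estimate of spread. All mice were 6 weeks old on a mixed C57BL/6 and 129 background. RNA was taken from whole gonads, and polyA RNA was sequenced with a stranded kit.

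Limits of the model follow from these labels. Sf1-Cre uses the regulatory sequence of Nr5a1, which works in the somatic gonad and also in the adrenal cortex and pituitary, so germ cells of these ovaries keep the floxed alleles. No library carries the Dmrt1 allele without the loss of the receptors, and no control carries Cre. A difference between the groups therefore concerns the Dmrt1 allele only on a receptor-deleted background. In whole ovaries a lower level from fewer cells of a type and one from less RNA per cell cannot be told apart. The labels number the replicates and do not say which mice were littermates or whether ovaries were pooled, so each p-value measures the spread between these libraries.

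Retinoic acid, made from vitamin A by aldehyde dehydrogenases of the ALDH1A family, acts through the nuclear receptors RARA, RARB and RARG, which bind DNA with RXR partners at direct repeats of a short sequence. DMRT1 is a DNA-binding protein with a DM domain that keeps Sertoli cells of the testis male and counters retinoic acid signaling there. In the mouse ovary it is known chiefly from fetal germ cells, and adult granulosa cells depend instead on FOXL2 and on estrogen receptors to keep their female identity.

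The libraries held 21064856 to 25917720 counts each, so 3 counts, the limit that a count of 0 allows, correspond to 0.118 to 0.132 CPM (counts scaled to the TMM-normalised library size) over the 5 libraries. The sample titles carry a number whose meaning the labels do not give: it is under 7800 for both Dmrt1 het Rar mutants and Rar mutant 1, and over 7800 for Rar mutants 2 and 3. On the first principal component of log2 CPM, with 34.8% of the variance, the 4 libraries numbered under 7800 (control 1 among them) lay between -55.9 and -43.8 and the other 6 between 4.46 and 57.8. Rar mutant 3 stood apart from every other library on the second component, which held 18.3% of the variance, at 71.1. Values below are therefore given for Rar mutant 1 apart from Rar mutants 2 and 3.

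Dmrt1 itself (ENSMUSG00000024837, GRCm38 chromosome 19, 25505618 to 25604329, plus strand) was at or near 0 throughout. It had 0 counts in Dmrt1 het Rar mutant 1, 5 counts in Dmrt1 het Rar mutant 2 (0.219 CPM) and 0 counts in each of the 3 Rar mutants and 5 controls. Loss of 1 allele was thus not detectable in RNA of these ovaries at this depth, and the counts give no check on the label. The count table does not separate exons, so it does not check the receptor deletions either. Rara stood at 28.7 and 29.98 CPM in the Dmrt1 het Rar mutants, 20.4 in Rar mutant 1, and 30.8 and 28.7 in Rar mutants 2 and 3, which overlap. Rarb ranged from 2.10 to 2.90 CPM over the same 5 libraries, also with overlap. Rarg was at 20.4 and 22.0 CPM against 14.9, then 19.3 and 17.5, below the control mean of 29.5 ± 3.58 (SD, n = 5) in all 5, and its log2 fold change between the mutant genotypes was 0.30 (SE 0.18, adjusted p = 0.408 with edgeR). Nr5a1, whose regulatory sequence drives the Cre, was at 402 and 360 CPM against 346, then 268 and 280 (log2 fold change 0.35, SE 0.27, adjusted p = 0.498).

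Across the genome no gene passed the main test. With the quasi-likelihood test of edgeR, 0 of 20570 genes reached an adjusted p under 0.05, while 3467 genes (16.9%) had an unadjusted p under 0.05, 1555 of them higher in the Dmrt1 het Rar mutants (7.56%) and 1912 lower (9.3%). DESeq2 on the same counts called 626 genes (3.66%), 266 higher (1.55%) and 360 lower (2.1%). With a term for title numbers under or over 7800 in DESeq2, added after the data were seen, 156 genes were called (0.909%), 121 higher (0.705%) and 35 lower (0.204%), of which 120 were among the 626. The same term in edgeR left 0 called genes, with 1770 (8.6%) at an unadjusted p under 0.05.

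The count of called genes changed with the reference. Rar mutant 1 alone is 1 library and Rar mutants 2 and 3 are 2, so their counts differ in power and are not a measure of effect. Against Rar mutants 2 and 3 alone edgeR called 326 genes (1.51%), 142 higher (0.657%) and 184 lower (0.851%). Against Rar mutant 1 alone it called 0 genes, with 1536 (7.1%) at an unadjusted p under 0.05. Leaving Rar mutant 1 out of the main test gave 335 calls (1.64%), leaving out control 1 gave 1 (Col6a5, a collagen VI chain, log2 fold change 3.89, adjusted p = 0.0158), and leaving out any of the other 8 libraries gave 0. In the 4 libraries with numbers under 7800, where the only spread is that between the 2 Dmrt1 het Rar mutants, 1088 genes were called (5.33%), 273 of them shared with the 626 of DESeq2. Of the 626 genes, 618 had the same sign against Rar mutant 1 alone, though Rar mutant 1 was part of their reference. Of the 326 genes, 282 had the same sign against Rar mutant 1, and both contrasts share the Dmrt1 het libraries. Genotype and title number are tied for all but Rar mutant 1, so for the contrast with Rar mutants 2 and 3 they cannot be told apart.

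In 8087 genes (39.3%) the 2 Dmrt1 het Rar mutants and the 3 Rar mutants did not overlap, 4066 with the Dmrt1 het Rar mutants higher (19.8%) and 4021 lower (19.5%). A grouping by title number, with both Dmrt1 het Rar mutants and Rar mutant 1 on 1 side and Rar mutants 2 and 3 on the other, separated 10548 genes (51.3%).

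The 10 genes with the smallest p among those higher in the Dmrt1 het Rar mutants were Ank3, Neb, Kcnq5, Tox2, Gm30292, Gpsm1, Abca4, Ano4, Rapgef4 and Alpk3, with edgeR adjusted p from 0.111 to 0.115. The 10 among those lower were Hdc, Hao2, Hdhd3, Gm8982, Nectin2, Ggh, Mocs2, Gm3272, Mrap and Pappa2, with adjusted p from 0.111 to 0.145. Over the alternatives tried, the edgeR adjusted p of these 20 genes ran from 0.00371 to 0.745, and 18 of the 20 were called under the same 5 settings: both DESeq2 fits, the 4 libraries with low numbers, Rar mutants 2 and 3 as the reference, and the fit without Rar mutant 1. All 20 were selected for their p in this contrast, so their separation is a description.

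**Figure D1:**
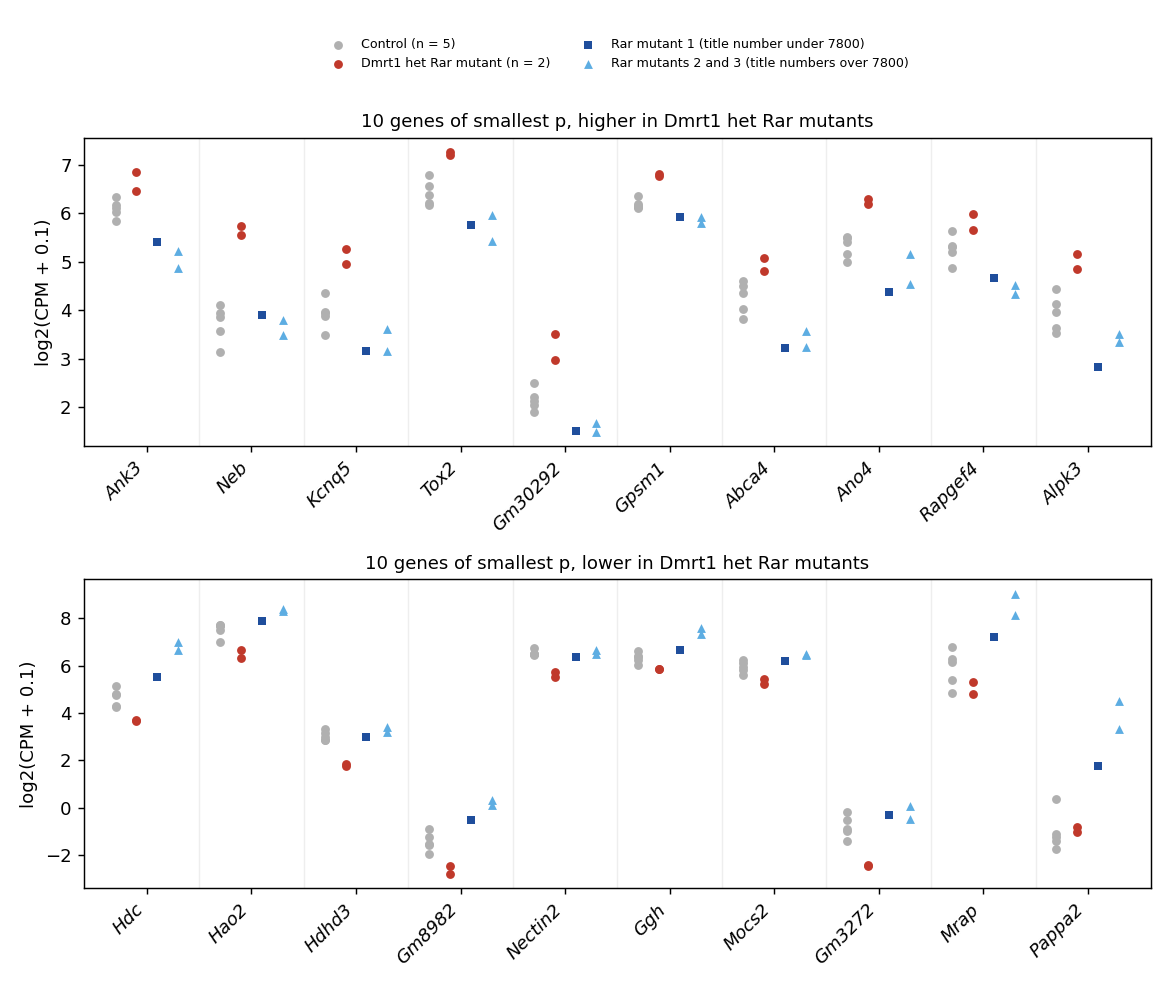
Level of the 20 genes with the smallest p in each library, as log2(CPM + 0.1), with each point 1 library. In the upper panel both Dmrt1 het Rar mutants (red) lie above all 3 Rar mutants, and in the lower panel they lie under them; Rar mutant 1 (square) lies between the Dmrt1 het Rar mutants and Rar mutants 2 and 3 for 9 of the 10 lower genes and 3 of the 10 higher genes.

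To show what precedes these genes, the 250 bases upstream of their start sites were read from RefSeq (GRCm38.p6), where 13 of the 20 had an entry. A core of the sites that DM domain proteins bind, TACANTGT on either strand, was present in 1 of these 13 genes, in the second of the 2 promoters of Kcnq5 ordered by distance from the annotated start, and in 2.7% of 27025 genes and 2.35% of all 32851 promoters of that length. A monomer site of NR5A1, CAAGGNCA on either strand, was present in 1 of the 13, in the fourth of 4 promoters of Gpsm1, and in 6.33% of genes and 5.53% of all promoters (with T for N it contains the AGGTCA of the repeats that follow). Direct repeats of AGGTCA spaced by 5 or by 2 bases, the form that RAR and RXR bind, were in none of the 13 and in 0.00913% of all promoters each. Both promoters with a match and those of Hdc and Hao2, the first-ranked genes of the lower group, are printed 5′ to 3′ on the gene's strand with the match in capitals. Each match is written as it reads on that strand, here the reverse complement of the motif.
Kcnq5, chr1:21962651-21962900, minus strand: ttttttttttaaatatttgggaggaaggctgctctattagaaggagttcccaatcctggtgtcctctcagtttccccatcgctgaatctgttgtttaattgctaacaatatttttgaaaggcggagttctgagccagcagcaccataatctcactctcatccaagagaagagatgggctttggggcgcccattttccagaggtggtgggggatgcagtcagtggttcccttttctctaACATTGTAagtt
Gpsm1, chr2:26319520-26319769, plus strand: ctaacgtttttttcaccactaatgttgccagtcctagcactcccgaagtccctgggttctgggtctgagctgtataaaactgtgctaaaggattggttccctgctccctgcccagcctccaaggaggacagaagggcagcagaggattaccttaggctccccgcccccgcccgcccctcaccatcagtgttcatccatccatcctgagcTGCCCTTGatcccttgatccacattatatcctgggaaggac
Hdc, chr2:126618679-126618928, minus strand: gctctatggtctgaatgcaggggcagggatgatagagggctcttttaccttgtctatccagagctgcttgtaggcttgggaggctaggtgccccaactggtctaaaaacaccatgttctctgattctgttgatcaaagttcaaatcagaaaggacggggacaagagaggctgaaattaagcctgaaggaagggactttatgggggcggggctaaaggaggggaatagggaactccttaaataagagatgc
Hao2, chr3:98893231-98893480, minus strand: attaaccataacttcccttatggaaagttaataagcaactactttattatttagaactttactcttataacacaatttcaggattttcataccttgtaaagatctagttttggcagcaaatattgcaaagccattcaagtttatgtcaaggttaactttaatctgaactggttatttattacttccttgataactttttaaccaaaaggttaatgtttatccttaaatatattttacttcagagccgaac
Hdc and Hao2 held none of the 4 motifs in these windows.

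Among the higher genes, Ank3 codes for ankyrin-G, a scaffold that ties membrane proteins to the spectrin skeleton. It was at 115 and 87.6 CPM in the Dmrt1 het Rar mutants, 42.3 in Rar mutant 1, 29.3 and 37.2 in Rar mutants 2 and 3, and 68.7 ± 8.44 (SD, n = 5) in controls, a log2 fold change of 1.48 (SE 0.20). Both Dmrt1 het Rar mutants were above every other mutant library, and all 5 controls lay between the 2 mutant groups. Neb, the thin-filament ruler of skeletal muscle, was at 53.1 and 46.7 CPM against 14.9, then 11.2 and 13.8, with controls at 13.4 ± 3.25 (SD, n = 5), so here controls lay with the Rar mutants (log2 fold change 1.91, SE 0.26). The other 11 skeletal muscle markers besides Neb and Ttn summed, over the 9 in the table, to 6.27 to 7.36 CPM in the Dmrt1 het Rar mutants and 7.25 to 15.8 in the Rar mutants, Actn3 holding the highest single value at 12.03 CPM. None was at 0 in all 5 libraries, and the muscle creatine kinase Ckm was at 0.0438 to 0.166 CPM in them.

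Kcnq5, a voltage-gated potassium channel, was at 38.3 and 30.8 CPM in the Dmrt1 het Rar mutants, 8.77 in Rar mutant 1, and 8.80 and 12.1 in Rar mutants 2 and 3. Tox2, an HMG-box protein, was at 154 and 147 CPM against 53.9, then 42.7 and 62.4. In both genes Rar mutant 1 was among or below the other Rar mutants, as it was in 7 of the 10 higher genes. Gpsm1, a modulator of G-protein signaling, had the narrowest spread, with 112 and 109 CPM against 60.3, then 55.9 and 60.6, and controls at 72.9 ± 5.31 (SD, n = 5), a log2 fold change of 0.90 (SE 0.14).

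Abca4, which flips retinoid-lipid conjugates across photoreceptor membranes, was at 33.5 and 27.8 CPM against 9.29, then 9.38 and 11.8 (log2 fold change 1.59, SE 0.25). Rapgef4, the cAMP-activated exchange factor for Rap proteins also called Epac2, was at 62.7 and 50.4 CPM against 25.1, then 22.7 and 20.1. The mean of controls lay between the means of the 2 mutant groups for all 10 higher genes, though for Neb within the range of the Rar mutants. All 5 controls lay between the 2 mutant groups for 7 of the 10. On the log2 scale the control mean was nearer the Rar mutants in 7 genes and nearer the Dmrt1 het Rar mutants in Ank3, Abca4 and Rapgef4.

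Among the lower genes, Hdc (chromosome 2, 126593667 to 126619299) codes for histidine decarboxylase, which makes histamine. It was at 12.9 and 12.8 CPM in the Dmrt1 het Rar mutants, 45.7 in Rar mutant 1, 103 and 128 in Rar mutants 2 and 3, and 25.7 ± 6.65 (SD, n = 5) in controls. The Dmrt1 het Rar mutants were below all controls and the Rar mutants above them, with Rar mutant 1 lowest of the 3 (log2 fold change -2.85, SE 0.43, fitted as 7.20-fold higher in Rar mutants). Hdc is a mast cell marker. Of the 9 other mast cell markers besides Kit, the 5 in the table summed to 0.395 to 0.546 CPM in the Dmrt1 het Rar mutants and 0.826 to 0.901 in the Rar mutants, and none passed 0.386 CPM, the level of Tpsb2 in 1 library. Kit, the only other member of that list tested and also an oocyte gene, was at 44.1 and 22.4 CPM against 22.0, then 13.4 and 9.74, opposite in direction to Hdc.

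Hao2, a peroxisomal oxidase of hydroxy acids, was at 101 and 80.4 CPM against 237, then 339 and 317, with controls at 187 ± 35.2 (SD, n = 5), again between the groups (log2 fold change -1.71, SE 0.26). Mrap, the accessory protein that carries the ACTH receptor to the surface of adrenal cells, was at 27.5 and 39.6 CPM against 148, then 286 and 532, a log2 fold change of -3.26 (SE 0.65). Pappa2, a protease of the binding proteins of insulin-like growth factors, was at 0.462 and 0.395 CPM against 3.31, then 22.8 and 10.04. Its Dmrt1 het libraries matched the control mean of 0.472 CPM, and Rar mutant 1 lay between them and the other Rar mutants, as in 9 of the 10 lower genes. Smaller differences were those of Nectin2, an adhesion protein (46.2 and 53.6 CPM against 82.5, then 102 and 91.3), and of Ggh, which trims the glutamate tail of folates (58.8 and 57.6 CPM against 102, then 164 and 194). All 5 controls lay between the 2 mutant groups for only 4 of the 10 lower genes. The control mean lay between the group means for 9 of them and outside for Nectin2. On the log2 scale it was nearer the Rar mutants in 6 genes and nearer the Dmrt1 het Rar mutants in 4.

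Granulosa cell genes stood higher in the Dmrt1 het Rar mutants. Of 18 tested members of the list, 16 had a positive log2 fold change, 8 at an unadjusted p under 0.05 with 0 on the lower side (over all genes, 7.56% were higher and 9.3% lower at that level), and 11 lay above all Rar mutants, as did 19.8% of all genes. The median log2 fold change was 0.58 against -0.01 over all genes tested, and it was 0.56 against Rar mutant 1 alone and 0.75 against Rar mutants 2 and 3. DESeq2 called 3 members higher (2 with the title-number term), where it called 1.55% of all genes higher (0.705% with that term), and edgeR called none. The summed level of the list was 9836 and 9854 CPM in the Dmrt1 het Rar mutants, 6587 in Rar mutant 1, 5017 and 7136 in Rar mutants 2 and 3, and 6575 to 11640 in controls, whose range holds both Dmrt1 het libraries.

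Esr2, the estrogen receptor of granulosa cells, was at 230 and 175 CPM in the Dmrt1 het Rar mutants, 68.0 in Rar mutant 1, 88.8 and 87.0 in Rar mutants 2 and 3, and 115 ± 21.8 (SD, n = 5) in controls. The log2 fold change was 1.32 (SE 0.22, adjusted p = 0.115 with edgeR and 0.000125 with DESeq2), and 1.11 to 1.57 over the alternatives. Rar mutant 1 was the lowest of the mutant libraries. Fshr, the receptor for follicle-stimulating hormone, was at 69.1 and 78.3 CPM against 21.2, then 26.5 and 26.4 (log2 fold change 1.58, SE 0.41, adjusted p = 0.203). Controls spread widely for Fshr, at 40.5 ± 20.5 (SD, n = 5).

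Gja1, the connexin that couples granulosa cells, was at 3069 and 2835 CPM against 1920, then 1181 and 1639, which did not overlap. Hsd17b1, which reduces estrone to estradiol, was at 274 and 295 CPM against 190, then 154 and 136, with controls at 275 ± 69.0 (SD, n = 5), level with the Dmrt1 het Rar mutants. Nr5a2, a nuclear receptor needed for ovulation, was at 562 and 634 CPM against 408, then 431 and 268.

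**Figure D2:**
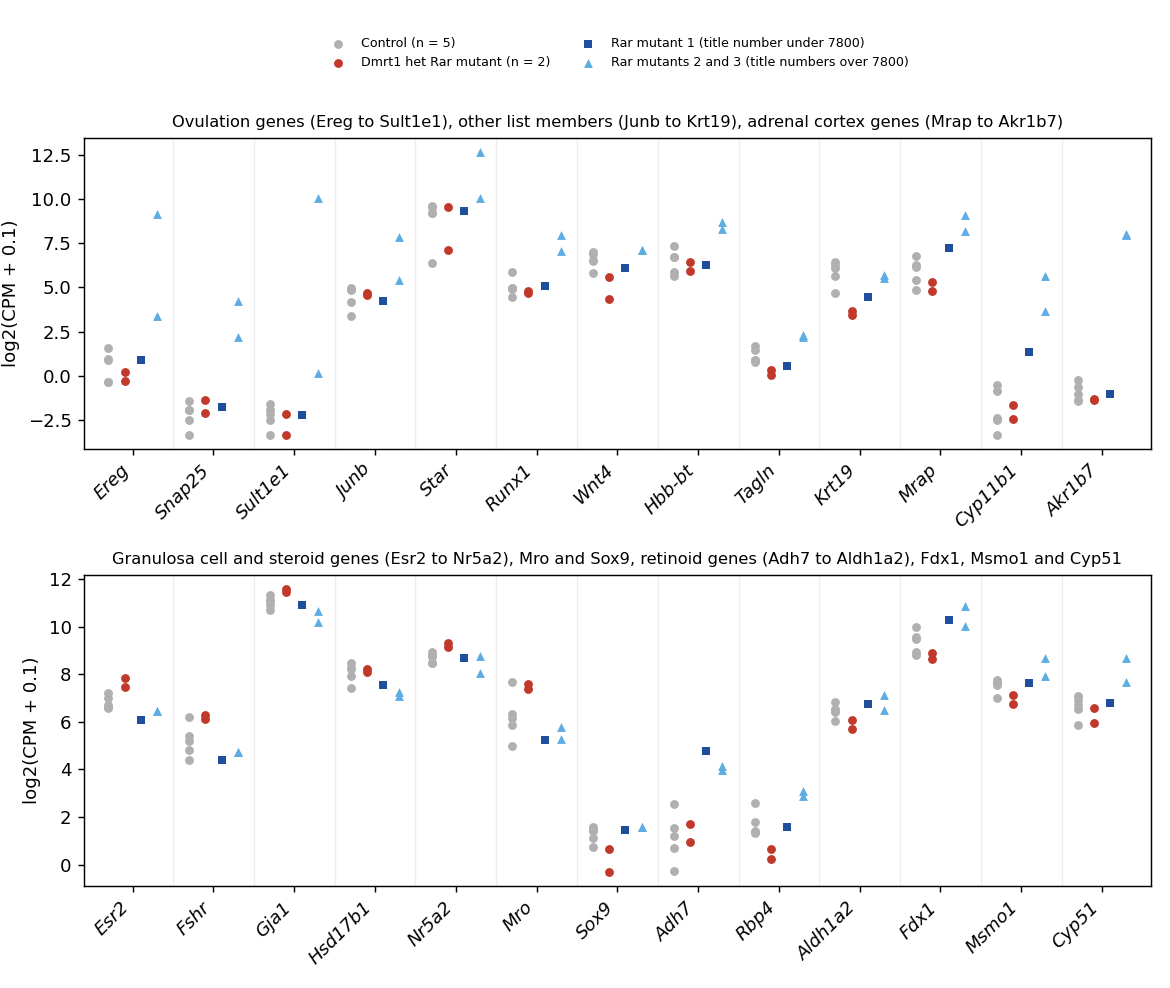
Members of the gene lists in each library, as log2(CPM + 0.1), with each point 1 library. For Ereg, Sult1e1, Star, Junb and Akr1b7 one or both of Rar mutants 2 and 3 (triangles) stand far above every other library including Rar mutant 1, whereas for Esr2, Fshr and Adh7 all 3 Rar mutants lie on the same side of the Dmrt1 het Rar mutants.

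Genes of sex fate had list medians near 0. Of 17 tested members of the Sertoli cell and testis fate list, 6 were positive and 11 negative, with a median log2 fold change of -0.14 (0.32 against Rar mutant 1 alone), 2 members in each direction at an unadjusted p under 0.05 and 1 in each called by DESeq2, where 7.56% of all genes were higher and 9.3% lower at that level and DESeq2 called 1.55% and 2.1%. The sign of the median turned with the reference. Sox9, the transcription factor that sets Sertoli fate, was at 0.715 and 1.49 CPM in the Dmrt1 het Rar mutants against 2.68, then 2.86 and 2.87, with controls at 2.37 ± 0.544 (SD, n = 5). Mro, a gene first described for male-biased expression in the gonad, was at 168 and 190 CPM against 37.9, then 38.8 and 55.8 (log2 fold change 2.02, SE 0.58, adjusted p = 0.206). Controls held Mro at 89.4 ± 66.8 (SD, n = 5), and their highest library, at 204 CPM and far from the other controls, stood above both Dmrt1 het Rar mutants.

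On the ovarian side, 15 members of the somatic fate list gave a median of -0.06, with 7 positive and 8 negative, which was -0.14 against Rar mutant 1 and 0.21 against Rar mutants 2 and 3. At an unadjusted p under 0.05, 3 were higher and 3 lower, where 7.56% and 9.3% of all genes were. DESeq2 called 1 higher (Esr2, above) and 2 lower (Wnt4 and Runx1), where it called 1.55% and 2.1% of all genes. With the title-number term it called 2 higher and 0 lower, where it called 0.705% and 0.204% of all genes. Wnt4, a ligand that promotes ovarian fate, was at 20.2 and 48.1 CPM against 66.9, then 136 and 137 (log2 fold change -1.73, SE 0.45, adjusted p = 0.203). Runx1, a transcription factor of pre-granulosa cells, was at 27.5 and 25.8 CPM against 33.9, then 135 and 249. Its log2 fold change was -2.39 against all 3 Rar mutants and -0.35 against Rar mutant 1 alone, and controls were at 34.5 ± 14.3 (SD, n = 5), so Rar mutants 2 and 3 alone stood high.

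Retinoid genes had a median below 0 against Rar mutants 2 and 3 (-0.22) and near 0 against Rar mutant 1. Of 22 tested members of the list of receptors and metabolism, 14 were negative with a median of -0.23. Against Rar mutant 1 alone 11 were negative with a median of -0.02, and with the title-number term in edgeR the median was 0.0446. At an unadjusted p under 0.05 5 members were lower and 0 higher, where 9.3% of all genes were lower, and DESeq2 called 3 lower, where it called 2.1% of all genes. Adh7, an alcohol dehydrogenase that oxidizes retinol, was at 1.85 and 3.20 CPM in the Dmrt1 het Rar mutants, 27.6 in Rar mutant 1, 15.7 and 17.9 in Rar mutants 2 and 3, and 2.59 ± 1.91 (SD, n = 5) in controls. The 2 Dmrt1 het libraries were at control level and all 3 Rar mutants far above it, fitted as 8.07-fold higher in Rar mutants. The log2 fold change was -3.01 (SE 0.71, adjusted p = 0.195 with edgeR and 0.000572 with DESeq2), and -3.52 to -2.68 over the alternatives.

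Rbp4, the carrier of retinol in plasma, was at 1.47 and 1.10 CPM against 2.91, then 7.39 and 8.50. Aldh1a2, which makes retinoic acid, was at 51.4 and 67.7 CPM against 109, then 141 and 89.2. Neither gene overlapped between the groups. Of 10 genes known to respond to retinoic acid, 8 were negative with a median of -0.23 (-0.14 against Rar mutant 1, -0.38 against Rar mutants 2 and 3), and neither test called any: Tgm2, a transglutaminase, was at 61.4 and 91.3 CPM against 79.7, then 152 and 133.

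Genes of the adrenal cortex separated the Rar mutants as well as the groups. Of 6 tested members 4 were negative and 2 positive. At an unadjusted p under 0.05, 4 were lower and 1 was higher, where 9.3% of all genes were lower and 7.56% higher. Below all Rar mutants lay 3 members and above them 1, as did 19.5% and 19.8% of all genes. All 3 with the smallest p were called lower by DESeq2, which called 2.1% of all genes lower: Mrap (above), Cyp11b1 and Akr1b7. Cyp11b1, the enzyme that completes glucocorticoid synthesis, was at 0.0841 and 0.219 CPM in the Dmrt1 het Rar mutants, 2.4 in Rar mutant 1, and 49.96 and 12.5 in Rar mutants 2 and 3. Akr1b7, an aldose reductase of the adrenal, was at 0.294 and 0.307 CPM, 0.393 in Rar mutant 1, and 248 and 261 in Rar mutants 2 and 3, with controls at 0.447 ± 0.198 (SD, n = 5).

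For Akr1b7 the level in Rar mutant 1 was thus that of controls and of the Dmrt1 het Rar mutants: the log2 fold change was -9.70 against Rar mutants 2 and 3 (edgeR adjusted p = 3.94e-06, the lowest of its alternatives) and -0.39 against Rar mutant 1, with an adjusted p of up to 0.965. The other 5 adrenal markers summed to 4.16 to 6.26 CPM in the Dmrt1 het Rar mutants and 3.70 to 4.98 in the Rar mutants, with Nr0b1 the highest, and none was at 0 in all 5 libraries. Whether adrenal-like cells were present was not tested.

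Genes of ovulation and cumulus expansion gave the lowest list median, -3.38 over 17 tested members, all of them negative, and 11 at an unadjusted p under 0.05, where 9.3% of all genes were lower at that level. Against Rar mutant 1 alone the median was 0.11, with 8 of 17 negative, and without Rar mutant 3 it was -1.0. Ereg, an EGF-like ligand that relays the signal of luteinizing hormone, was at 1.05 and 0.701 CPM in the Dmrt1 het Rar mutants, then 1.73, 10.5 and 557 in the Rar mutants in order. Sult1e1, an estrogen sulfotransferase, was at 0.126 and 0 CPM, then 0.118, 0.996 and 1054.

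Rar mutant 3 was the high library for both. Its summed level of the list was 6574 CPM, against 1812 and 717 in the other Rar mutants and 782 to 934 in the Dmrt1 het Rar mutants. The steroid carrier Star followed the same order of Rar mutants, at 139 and 727 CPM against 624, then 1039 and 6441. Among these 5 libraries immediate early genes were high in Rar mutant 3, with a sum of 1899 CPM against 642 and 423 in Rar mutants 1 and 2 and 663 and 651 in the Dmrt1 het Rar mutants. Their median was -0.95 over 15 members, 0.49 against Rar mutant 1 alone and 0.53 without Rar mutant 3. Junb, a subunit of AP-1, was at 25.2 and 23.4 CPM against 18.3, then 42.0 and 228.

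Cholesterol synthesis and uptake genes had a median below 0 against either kind of Rar mutant library. Of 25 tested members, 22 were negative, 11 at an unadjusted p under 0.05 with 0 higher, 13 lay below all Rar mutants, and DESeq2 called 3 (with the title-number term, 0). Over all genes 9.3% were lower at that level, 19.5% lay below all Rar mutants and DESeq2 called 2.1% lower. Their summed level overlapped, at 1509 and 2265 CPM in the Dmrt1 het Rar mutants, 2950 in Rar mutant 1, 2203 and 3351 in Rar mutants 2 and 3, and 1258 to 3296 in controls. The median was -0.58, with -0.51 against Rar mutant 1 and -0.55 against Rar mutants 2 and 3. Msmo1, a sterol demethylating oxidase, was at 109 and 140 CPM against 198, then 245 and 413, with controls at 188 ± 35.2 (SD, n = 5).

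Cyp51, the lanosterol demethylase, was at 62.0 and 95.2 CPM against 111, then 206 and 407. Acat2, which condenses acetyl-CoA at the head of the pathway, was at 28.7 and 41.8 CPM against 69.4, then 73.9 and 51.4. Dmrt1 het Rar mutant 1 was the lower of its pair in all 3 genes. Fdx1, the electron donor of mitochondrial steroid enzymes, was at 402 and 478 CPM against 1257, then 1045 and 1847 (log2 fold change -1.65, SE 0.37, adjusted p = 0.185), while 16 genes of core steroidogenesis had a median of -0.40, 7 positive and 9 negative, which was -0.42 against Rar mutant 1 and 0.009 against Rar mutants 2 and 3.

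Surface epithelium genes were lower as well, with 11 of 12 negative, 7 at an unadjusted p under 0.05 (9.3% of all genes) and a median of -0.92 (-0.59 against Rar mutant 1). The keratin Krt19 was at 10.6 and 12.6 CPM against 21.8, then 51.0 and 46.3, and the uroplakin Upk1b at 17.4 and 26.2 against 34.1, then 42.5 and 66.0, with Rar mutant 1 between in each. DESeq2 called 3 of the 12, against 2.1% of all genes, and with the title-number term 0. Epcam, an adhesion molecule of epithelium, belongs instead to the oviduct and ciliated epithelium list, where 5 of 11 tested members were positive and 6 negative. It was at 1.13 and 2.15 CPM against 5.67, then 6.52 and 4.76, all below the controls at 24.9 ± 11.8 (SD, n = 5).

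Among the mutant libraries, blood and smooth muscle lists were high in both Rar mutants 2 and 3, and the fat list in Rar mutant 2. Control 3 was high as well. Its smooth muscle sum was 1818 CPM against 1513 and 1627 in Rar mutants 2 and 3, and its fat sum 80.2 CPM. Its erythroid sum was 1635 CPM against 2004 and 2707. Control 1, numbered under 7800, was high for the fat list alone of these, with a sum of 65.1 CPM against 79.1 in Rar mutant 2. The erythroid median was -1.82 with 7 of 7 negative, and -0.02 against Rar mutant 1 alone: the globin Hbb-bt was at 60.1 and 84.6 CPM against 75.4, then 318 and 412. Smooth muscle genes had -0.75 with 9 of 9 negative, and 0.06 against Rar mutant 1. Adipocyte genes had -1.38 over 7 members and 0.67 against Rar mutant 1. They summed to 23.4 and 23.01 CPM in the Dmrt1 het Rar mutants, 17.2 in Rar mutant 1, and 79.1 and 24.3 in Rar mutants 2 and 3, with Fabp4 at 3.19 and 2.72 CPM against 2.28, then 41.7 and 16.0. The part of such cells in other differences was not tested.

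Oocyte genes went the other way with the reference. Their median over 24 members was -0.07 against all 3 Rar mutants, -0.43 against Rar mutants 2 and 3 and 1.122 against Rar mutant 1, where 0 of 24 were negative. The summed oocyte level was 1000 and 802 CPM in the Dmrt1 het Rar mutants, 430 in Rar mutant 1, and 1043 and 1311 in Rar mutants 2 and 3, so Rar mutant 1 was the low library. Corpus luteum genes had a median of -0.12 (-0.77 against Rar mutant 1), and Rar mutant 1 had their highest sum, 20860 CPM, against 10610 and 12940 in the Dmrt1 het Rar mutants and 12750 and 18370 in Rar mutants 2 and 3.

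Apart from the mast cell list, with only 2 tested members and a median of -0.85, the remaining lists had medians from -0.41 to 0.45 against all Rar mutants. The sign was the same against Rar mutant 1 and against Rar mutants 2 and 3 for theca cell and hedgehog genes (0.13 overall), proliferation (0.08), interferon (0.25), meiotic prophase (0.40), lymphoid (0.36), macrophage (-0.31), endothelial (-0.17) and skeletal muscle genes (-0.23). Skeletal muscle genes were near 0 in both, at -0.01 against Rar mutant 1 and -0.03 against Rar mutants 2 and 3. Against Rar mutants 2 and 3, endothelial (-0.02) and proliferation genes (0.02) were near 0 as well. Oviduct and ciliated epithelium genes had -0.41, with -0.29 against Rar mutant 1 and 0.35 against Rar mutants 2 and 3. Circadian clock genes had 0.45 (0.14 against Rar mutant 1 and 0.62 against Rar mutants 2 and 3), with 10 of 16 positive: Ciart, a repressor of the clock, was at 6.47 and 7.50 CPM against 4.05, then 2.07 and 2.45. Arntl, its activator, was at 19.5 and 13.0 CPM against 38.8, then 40.0 and 24.5. Genes beside Nr5a1 had 0.42 (0.26 against Rar mutant 1), where Nr6a1 was at 60.1 and 56.2 CPM against 47.7, then 34.6 and 40.8, all above the controls at 13.0 ± 2.36 (SD, n = 5). Of 21 genes known from earlier results of these libraries to differ in Rar-deleted ovaries, a list that is not independent evidence, 15 were negative with a median of -0.26 (-0.23 against Rar mutant 1).

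**Figure D3:**
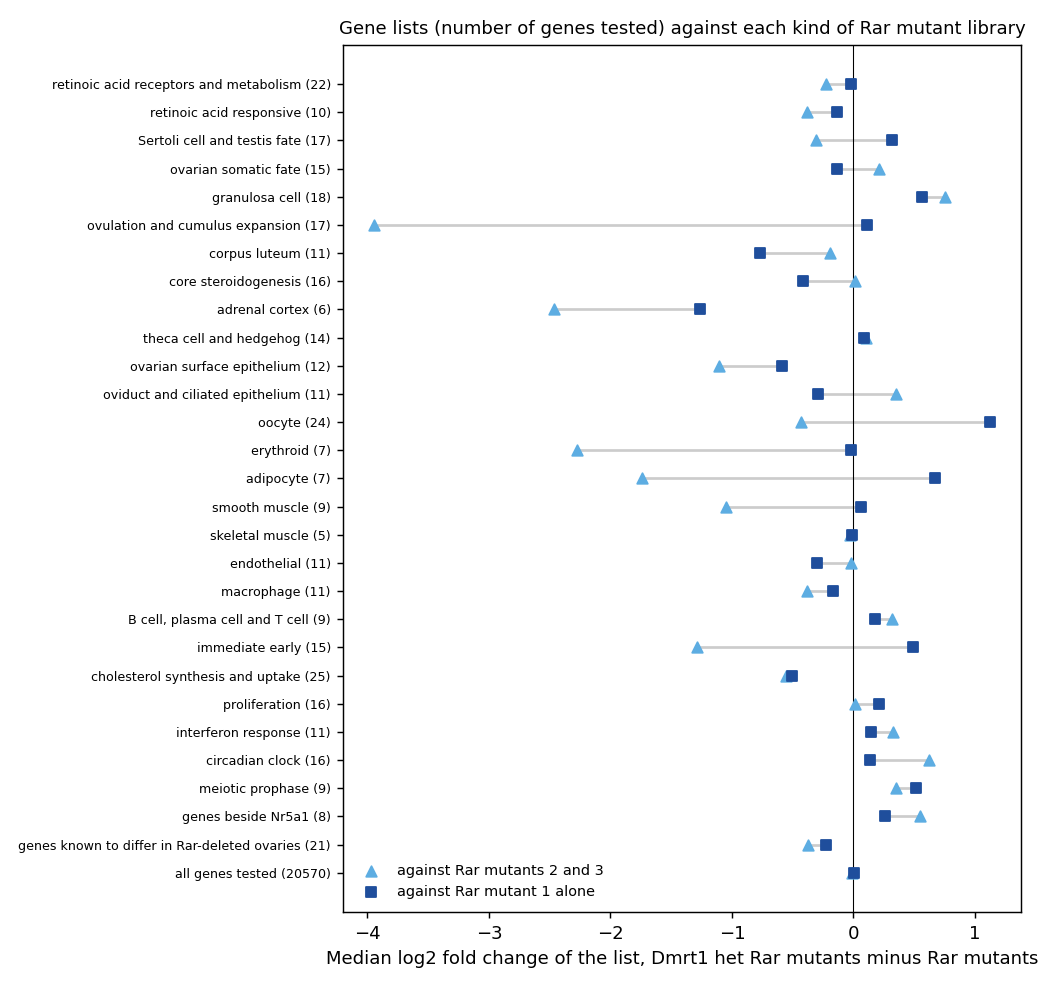
Median log2 fold change of each gene list, Dmrt1 het Rar mutants minus Rar mutant 1 (squares) or minus Rar mutants 2 and 3 (triangles), with the number of genes tested in brackets. Granulosa cell, cholesterol, surface epithelium and adrenal cortex lists have medians of the same sign against both, whereas ovulation genes are at 0.11 and -3.94 and oocyte genes at 1.122 and -0.43.

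Gene length moved with the comparison. Genes were divided into 5 equal classes by the summed length of their exons, and the shortest class had a median level, relative to the mean of all 10 libraries, of -0.30 and -0.31 on the log2 scale in the Dmrt1 het Rar mutants, -0.15 in Rar mutant 1, and 0.15 and 0.23 in Rar mutants 2 and 3. The longest class had 0.29 and 0.24, then 0.16, then -0.18 and -0.18. Control 1, which shares the low title numbers, had -0.23 and 0.23, near the Dmrt1 het Rar mutants. The median exon length was 5319 bases for the genes that lay above all Rar mutants and 2167 for those that lay below, against 3456 for all tested genes, and 7083 against 2254 for genes called higher and lower by DESeq2.

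With an offset for exon length, added after the data were seen, edgeR still called 0 genes, with 3056 (15.0%) at an unadjusted p under 0.05. The log2 fold change of Ank3, whose exons sum to 34838 bases, went from 1.48 to 0.72 and that of Neb, at 26582 bases, from 1.91 to 1.24. Those of Tox2 and Hdc went from 1.505 to 1.53 and from -2.85 to -3.05. The granulosa cell median was 0.53 and the cholesterol median -0.69 with the offset. The part of length in the remaining differences was not tested.

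**Figure D4:**
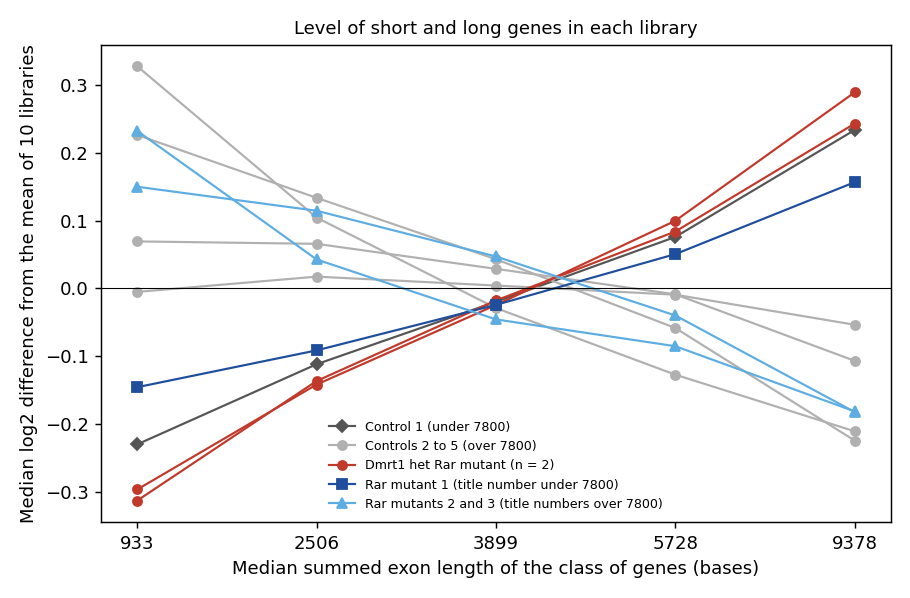
Median log2 difference of each of 5 classes of genes from the mean of the 10 libraries, by summed exon length, with each line 1 library and 16533 genes in all. The 4 libraries with title numbers under 7800 rise from short to long genes and Rar mutants 2 and 3 fall, with Rar mutant 1 at -0.15 and 0.16 nearer 0 than the Dmrt1 het Rar mutants.

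Around Dmrt1, 10 genes of the table (Dmrt1 itself included) lay within 1000 kb, of which 7 were tested, and at an unadjusted p under 0.05 1 was higher and 2 were lower (none called by edgeR), where 16.9% of all genes passed that level. The higher one, singled out after its values were seen, was Kank1 (chromosome 19, 25236975 to 25434496), a regulator of the actin skeleton that lies beside Dmrt1. It was at 77.6 and 68.6 CPM in the Dmrt1 het Rar mutants, 46.0 in Rar mutant 1, 48.0 and 42.8 in Rar mutants 2 and 3, and 47.0 ± 4.21 (SD, n = 5) in controls. Both Dmrt1 het libraries were above every other library named here, while Rar mutants and controls overlapped. The log2 fold change was 0.68 (SE 0.15, adjusted p = 0.170 with edgeR and 0.00372 with DESeq2), and 0.52 to 0.77 over the alternatives. With the title-number term of DESeq2 the log2 fold change was 0.60 and no longer called.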

How the data were processed

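PolyA RNA of whole gonads was sequenced in 10 libraries, and the deposited count table gives raw counts per Ensembl gene and library. Build GRCm38 (mm10) is listed in the submitters' processing notes, together with DESeq2 1.12.3, STAR 2.4.2a, Trimmomatic 0.32 and SAMtools 1.0. Which tool made the counts, and on which annotation, is not given in the sources used here. The deposited tables of FPKM and of differential expression were not used.

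Groups followed the sample titles. The counts were tested in R 4.3.3 with edgeR 4.0.16 (TMM, filterByExpr, robust quasi-likelihood fit of 3 groups over all 10 libraries, two-sided, Benjamini-Hochberg adjusted p under 0.05), and DESeq2 1.42.0 was an alternative. The SE given for edgeR is approximate, the log2 fold change over the root of its F statistic. Medians of lists are described and carry no test. Gene positions and exon lengths came from GENCODE M21, which matched 24090 of 24306 identifiers. The script was tested on simulated data without a difference by title number. It recovered 29% of 2-fold and 84% of 4-fold changes, and 7.38% of its calls were false. No libraries of 1 group were duplicates. A count of 0 allows 3 counts, for counting error only.

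Genes were named by rule: the targeted genes, the 10 smallest p in each direction, and up to 3 members of each of 29 lists by smallest p, of which a part is printed. The members and lists were chosen with earlier results of these data known.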

Additional observations from a re-analysis of the deposited data

Results flagged for a closer look

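Of 23 genes checked in the 5 controls, 3 had a control library far from the others, where chance gives about 1 in 20. The control highest for Nr5a1 was at 316 CPM, within the 268 to 402 CPM of the 5 mutant libraries. The control highest for Pappa2 was at 1.19 CPM, above the Dmrt1 het Rar mutants at 0.462 and 0.395 and below every Rar mutant. The control highest for Mro was at 204 CPM, above both Dmrt1 het Rar mutants at 168 and 190.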

How the results depend on the processing

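The count of called genes was 0 under 9 of 13 alternatives other than leaving out a library, and 626 with DESeq2, 156 with DESeq2 and a title-number term, 1088 in the 4 libraries with numbers under 7800 and 326 with Rar mutants 2 and 3 as the reference. Leaving out 1 library gave 0 to 335 calls, with 335 without Rar mutant 1, 1 without control 1 and 0 in 8 of 10 fits. Whether replicate numbers pair the libraries could not be decided. The 7 same-numbered pairs correlated at -0.087 to 0.435, highest for control 1 with Rar mutant 1, both numbered under 7800. Rar mutant 3 with control 3 had 0.2435, and Rar mutant 2 with control 4, of unlike numbers, 0.2419. The 2 Dmrt1 het libraries mirror each other around their mean, so the 2 pairs of mutants (-0.087 and -0.056) cannot test a pairing. A fit with the replicate number as a block called 0 genes.

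Over 79 named genes and all alternatives, 1623 of 1807 values kept their direction and their side of the threshold, 9 had no adjusted p from DESeq2, 160 newly passed it and 15 reversed, in 7 genes. Rara went to -0.0245 with Rar mutants 2 and 3 as the reference and to -0.0212 without Rar mutant 1. Rarb went to 0.0399 with the title-number term, 0.0311 with that term in DESeq2, 0.0031 with that term and the exon-length offset, and 0.0104 without Dmrt1 het Rar mutant 1. Against Rar mutant 1 alone, Snap25 went to 0.11, Hhip to 0.12, Fabp4 to 0.37, Cd14 to 0.17 and Junb to 0.40, and in the 4 libraries with low numbers Hhip was at 0.13, Fabp4 at 0.37, Cd14 at 0.17 and Junb at 0.40. The cause was not tested. List medians moved in 108 of 667 values. At this depth Dmrt1, with 0 to 5 counts a library, could not be compared.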
